A study of Mus musculus with 2 samples.

Results

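Mediator and the general factor TFIID are the large protein assemblies through which RNA polymerase II starts transcription. Their messenger RNAs were compared between mature oocytes of aged and young mice. Genes were taken by symbol, those that begin with Med or Taf followed by a number, and 52 of the 36227 genes in the deposited table met that rule. Of these, 30 have a Med symbol and 22 a Taf symbol. The symbols Med20 and Taf1a were not analysed here. One Med symbol, Med9os, is an RNA from the strand opposite to Med9 and no Mediator gene.

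MII oocytes, which wait in metaphase of meiosis II for fertilisation, were taken from naturally ovulating females of the ICR strain. The aged library was made from 18 oocytes of 6 females at 12 months, with 3 oocytes from each. The young library was made in the same way from 18 oocytes of 6 females at 3 months. No other treatment or genotype is given for either age. Each age is thus 1 pooled library without replicates, and no test was run. Differences are described by size and by 95% exact intervals of the ratio that cover counting error only. In such pools, less RNA in every oocyte and loss from some of the oocytes cannot be told apart.

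Mediator bridges transcription factors bound at enhancers and the polymerase at the promoter. Its head and middle modules contact the polymerase, its tail module receives activators, a scaffold subunit joins them, and a separable kinase module regulates the whole. TFIID consists of the TATA-binding protein TBP and its associated factors, the TAFs, and recognises the core promoter. In growing mouse oocytes the TBP relative encoded by Tbpl2 takes the place of TBP at many promoters. Transcription stops before the oocyte matures, so the RNA of an MII oocyte is a stored supply.

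The aged library held 18597656 counts and the young library 19475110. A count of 0 allowed up to 0.161 CPM (a count scaled to its library total) in the aged and 0.154 CPM in the young library. All 14 markers of oocytes that were listed were detected, with 2109855 counts in all in the aged and 3918541 in the young library. Markers of the cumulus and granulosa cells around the oocyte summed to 64.8 CPM in the aged and 28.5 CPM in the young library, mostly from Cyp19a1, with 1056 and 436 counts. Nr5a2, with 106 and 38 counts in the aged and young libraries, and Fshr, with 16 and 0, were also higher in the aged. Other markers of these cells lay the other way, with 1 count in the aged and 27 in the young library for Cyp11a1, 0 and 14 for Inha, 0 and 6 for Cd44 and 22 and 30 for Kitl. Has2, Ptgs2, Ptx3 and Tnfaip6 had no more than 2 counts in a library. Of the 16 such markers 11 had a count, while Amh, Foxl2, Inhba, Lhcgr and Star were at 0 in both libraries. Blood and immune markers had 86 counts in the aged and 85 in the young library, nearly all from Cd68. What part such RNA has in the results below was not tested.

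Of the 52 genes, 46 had a mean of at least 20 counts over the libraries, the floor used for the comparisons, 27 of them Mediator and 19 Taf genes. Another 4 had counts below the floor, and Taf7l and Med9os had none. After scaling to the library totals, 4 of the 27 Mediator genes (14.8%) exceeded the young library by 2-fold or more, as did 27.9% of all 10211 genes above the floor. A single Mediator gene (1 of 27, 3.70%) was lower by 2-fold or more, against 10.6% of all genes. The 19 Taf genes included 6 (31.6%) on the higher side of 2-fold and 3 (15.8%) on the lower. In either direction, 14 of the 46 genes (30.4%) were at least 2-fold apart, against 38.4% of all genes, so the share is not above the background. The whole counting interval was past 2-fold for 2 Mediator and 5 Taf genes on the higher side, against 18.0% of all genes, and for 0 Mediator and 3 Taf genes on the lower side, against 6.35%. With a floor of 100 counts, 4 of 22 Mediator and 5 of 15 Taf genes were higher by 2-fold or more, against 25.7% of all genes, and 1 and 2 were lower, against 7.39%.

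The typical Mediator gene was nearly equal between the libraries, with a median log2 ratio of aged over young of 0.09. The median of all genes above the floor was 0.43. Relative to that median gene, the Mediator median was −0.34 and the Taf median, −0.04 as measured, was −0.47. Each of the 3 other scalings tried lowers every log2 ratio by a constant larger than the Mediator median. Both medians therefore had to be negative with each. The median of all genes fell by the same constants, to 0.00 with centring, 0.05 with TMM scaling and 0.14 with totals without the 100 most abundant genes. Centred on the median gene, 2 Mediator genes were higher by 2-fold or more and 4 lower, and 3 Taf genes were higher and 5 lower, where 16.0% of all genes were higher and 17.3% lower. Above the floor, Mediator ratios ran from −1.09 to 1.86, with an interquartile range of 1.20, and Taf ratios from −4.23 to 3.97 with one of 1.83. The Taf extremes were Taf1c and Taf15, which lie outside the TFIID group. The 15 TFIID genes alone ran from −1.84 to 1.83, with an interquartile range of 1.33. All genes together had an interquartile range of 1.37.

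**Figure D1:**
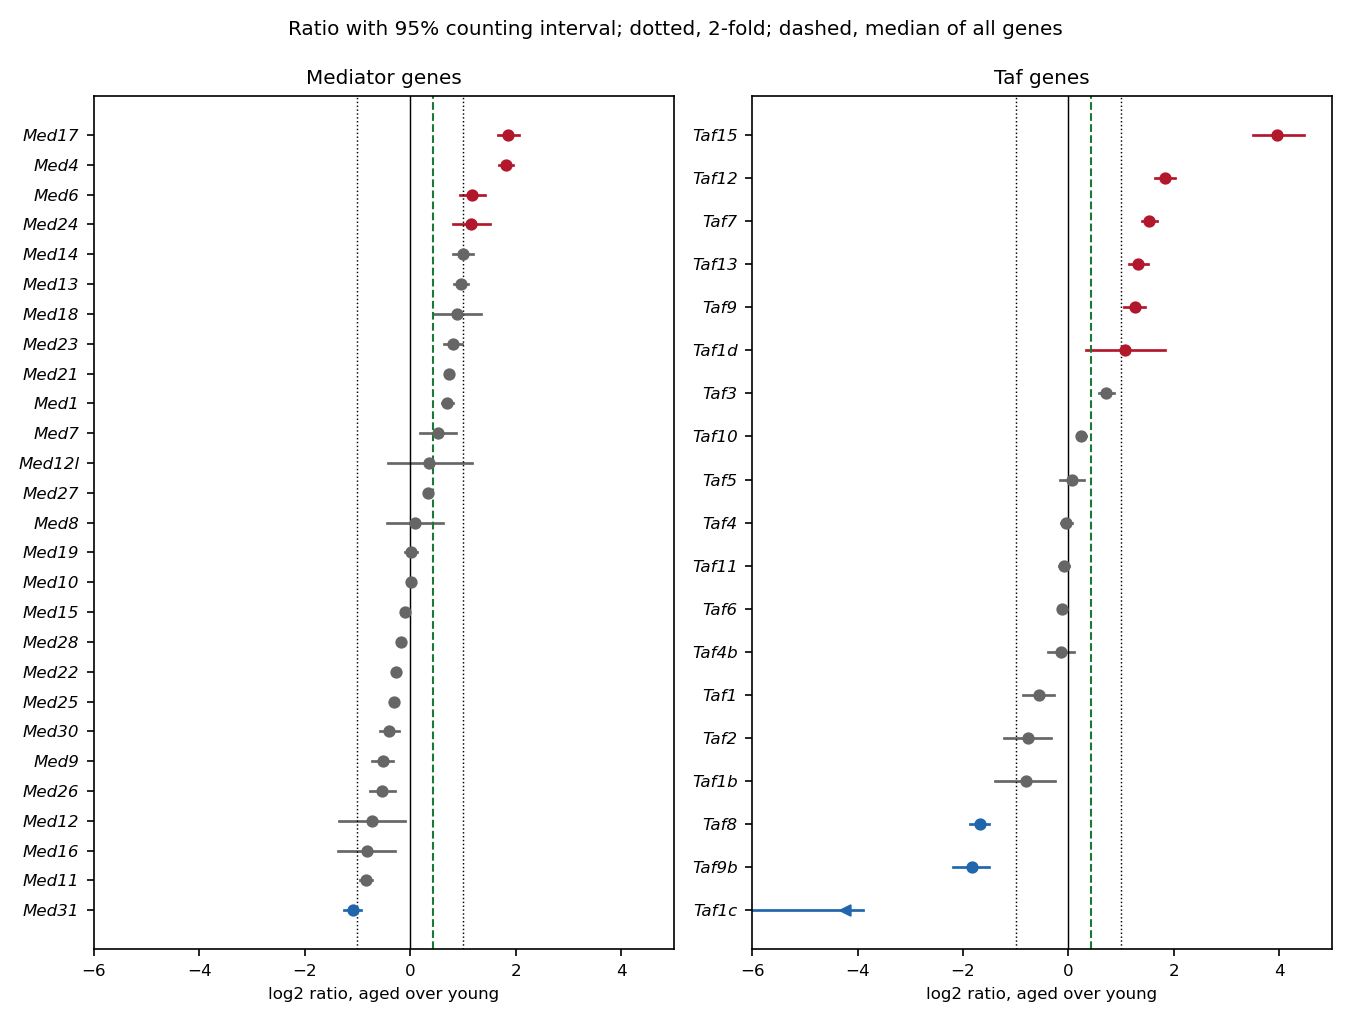
Log2 ratio of aged over young for the 27 Mediator genes (left) and 19 Taf genes (right) above the floor, with 95% counting intervals. Red marks genes higher in the aged library by 2-fold or more, blue those lower by as much, and the triangle a gene with 0 aged counts drawn against 3 counts. Mediator genes lie between −1.09 and 1.86 and TFIID genes between −1.84 and 1.83, while Taf15 lies at 3.97 and Taf1c at −4.23.

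In the head module, whose subunits sit against the polymerase, Med17 and Med6 were higher in the aged library. Med17, the central subunit of the head, had 926 counts (49.8 CPM) in the aged and 268 counts (13.8 CPM) in the young library. This is 3.62-fold higher, with a log2 ratio of 1.86 (interval 1.66 to 2.06), the highest of Mediator. Med6 had 445 counts (23.9 CPM) in the aged and 206 counts (10.6 CPM) in the young library, a log2 ratio of 1.18 (0.94 to 1.42) whose interval reaches below 2-fold. Med18 had 122 and 69 counts in the aged and young libraries, a log2 ratio of 0.89. Med11 and Med22, which pair with each other, both lay on the lower side. Med11 had 1023 counts in the aged and 1914 in the young library, a log2 ratio of −0.84. Of all members that fell short of the lower 2-fold limit it was the nearest. Med22, at 9744 and 12301 counts in the aged and young libraries, had a log2 ratio of −0.27, and Med8, at 61 and 60 counts, one of 0.09. The 6 head genes spanned both directions, with 4 above and 2 below equality, where 6777 of all 10211 genes lay above.

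The middle module held genes on both sides of the 2-fold limits. Med4 had 1938 counts (104 CPM) in the aged and 577 counts (29.6 CPM) in the young library, 3.52-fold higher, with a log2 ratio of 1.81 (1.68 to 1.95). Med31, the Mediator gene below the lower 2-fold limit, had 460 counts (24.7 CPM) in the aged and 1026 counts (52.7 CPM) in the young library, a log2 ratio of −1.09 (−1.25 to −0.93). Of the 50-base windows of its longest transcript, 36.5% also occur in another gene's transcripts, so part of its reads may not be its own. Med21, a small subunit that pairs with Med7, had 10086 and 6344 counts in the aged and young libraries, a log2 ratio of 0.74, and Med7 had 174 and 127 counts, one of 0.52. Med1, the subunit that nuclear receptors bind, had 1789 counts in the aged and 1150 in the young library, a log2 ratio of 0.70. Med26, which in human cells links Mediator to elongation factors, had 238 and 359 counts in the aged and young libraries, a log2 ratio of −0.53, close to that of Med9 at −0.52. Med10 and Med19 were at equality, with log2 ratios of 0.01 for both (−0.02 to 0.04 for Med10). For Med10, 73.6% of the windows are shared with the annotated gene Gm26819.

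The scaffold gene Med14, which runs through the complex, had 665 counts in the aged and 350 in the young library. Its log2 ratio of 0.99 (0.80 to 1.18) fell just short of the upper 2-fold limit. Among the tail genes, Med24 was 2.23-fold higher with 217 counts (11.7 CPM) in the aged and 102 counts (5.24 CPM) in the young library, and its log2 ratio was 1.16 (0.81 to 1.51). Med23 had 752 and 451 counts in the aged and young libraries, a log2 ratio of 0.80. Med16 had 47 counts in the aged and 87 in the young library, a log2 ratio of −0.82, while Med15 and Med25, both targets of activators, had −0.11 and −0.31. Med24, Med23 and Med16, known to lie together in the tail, did not share a direction.

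Med27 was by far the most abundant Mediator transcript. It had 70389 counts (3785 CPM) in the aged and 58062 counts (2981 CPM) in the young library, a log2 ratio of 0.34, and made up 52.4% of all Mediator counts in the aged and 47.7% in the young library. Med27, Med28, Med29 and Med30 lie where head meets tail. Per kilobase of transcript Med27 stood at 2245 CPM in the aged and 1768 CPM in the young library, against 63.8 and 72.5 CPM for Med28 and 21.7 and 28.6 CPM for Med30. Med29 was nearly undetected, with 2 counts in the aged and 16 in the young library, and its log2 interval ran from −6.10 to −0.85. The RNAs of these neighbouring subunits were thus measured at very unequal levels. Priming was by oligo(dT), and what part poly(A) tails have in these levels was not tested. After Med27 the highest levels per kilobase were those of Med10, at 1045 CPM in the aged and 1041 CPM in the young library, and of Med21, at 666 and 400 CPM. Med22 led the head genes at 149 and 180 CPM per kilobase in the aged and young libraries, and Med15 the tail genes at 89.5 and 96.4 CPM.

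**Figure D2:**
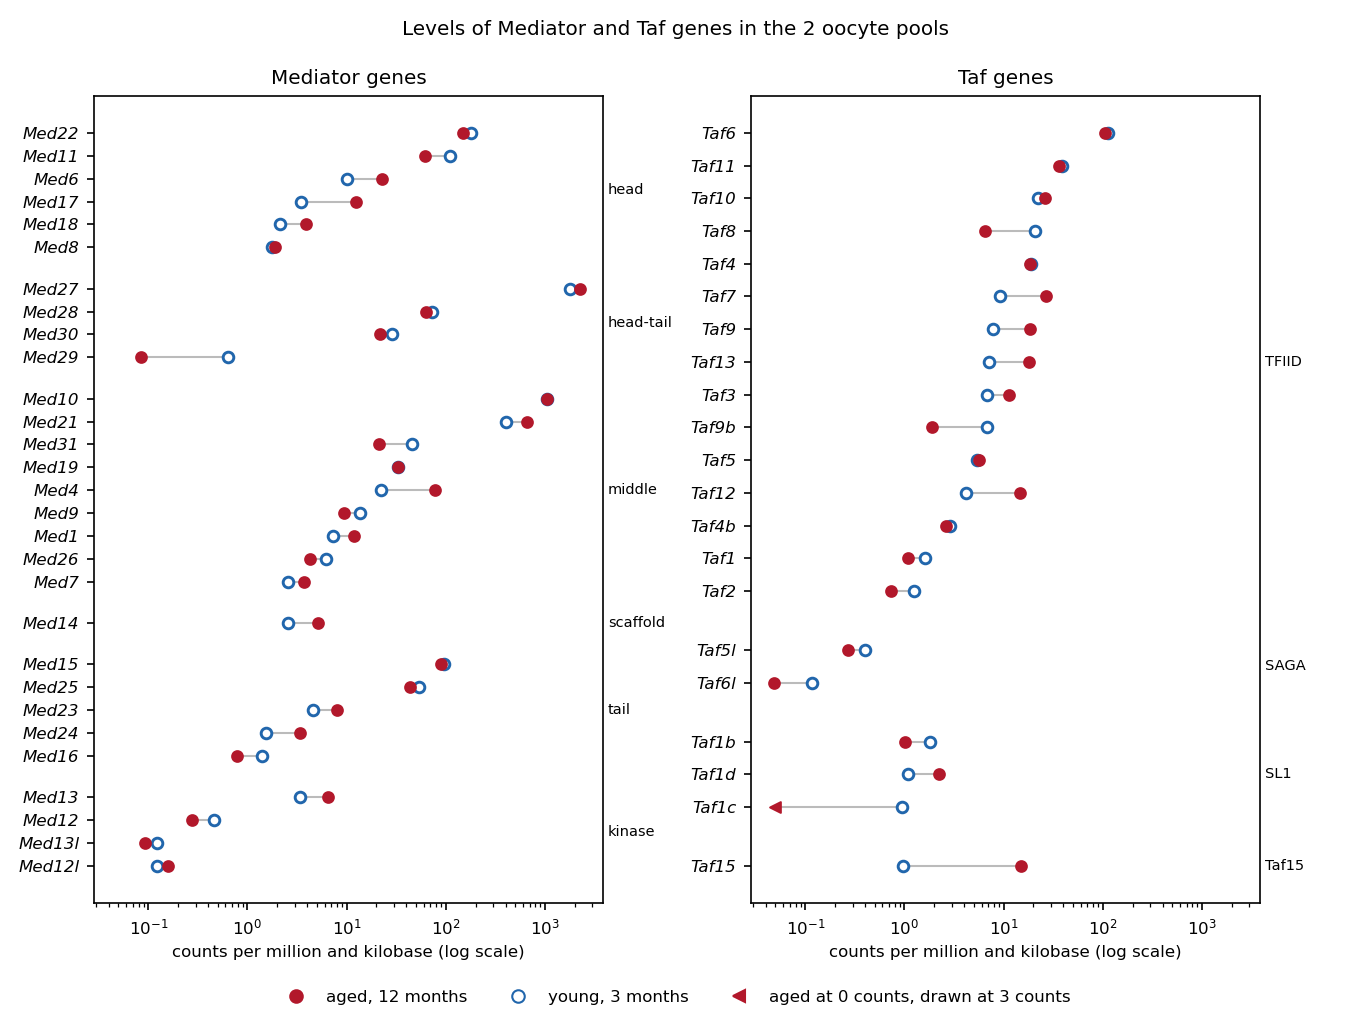
Level of each gene with a count in CPM per kilobase of its longest coding transcript (log axis), aged library filled and young library open, by module. Med27 is highest, at 2245 CPM per kilobase in the aged and 1768 in the young library, and Taf1c, at 0 counts in the aged library, is drawn at the level of 3 counts.

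The kinase module clips onto Mediator and can block its contact with the polymerase. Of its Med genes, Med13 had the most counts. Med13 had 1286 counts in the aged and 691 in the young library, a log2 ratio of 0.96 (0.83 to 1.10), just short of 2-fold. Its paralogue Med13l had 16 counts in the aged and 22 in the young library, 1.23% and 3.09% of the counts of the pair (exact intervals 0.704% to 1.99% and 1.94% to 4.63%). Med12, the activator of the kinase, had 36 counts in the aged and 62 in the young library, a log2 ratio of −0.72 (−1.35 to −0.10), and its paralogue Med12l 32 and 26 counts. Med12l took 47.1% of that pair in aged oocytes (34.8% to 59.6%) and 29.5% in the young (20.3% to 40.2%), intervals that overlap. The partners of these subunits, not chosen by the symbol rule, had ratios above the median gene at 0.43, and Cdk8 and Ccnc had 0.20 and 0.10 after correction for transcript length and GC content. Cdk8, the kinase itself, had 409 and 261 counts in the aged and young libraries, a log2 ratio of 0.71. Ccnc, its cyclin, had 208 counts in the aged and 95 in the young library, a log2 ratio of 1.20 (0.84 to 1.56), and the second kinase Cdk19, below the floor, 26 and 11 counts.

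The Taf genes fall into those of TFIID, with 15 above the floor, and those that share only the name. Of the 15 TFIID genes, 4 (26.7%) were higher by 2-fold or more in the aged library and 2 (13.3%) lower, near the 27.9% and 10.6% of all genes, each of the 6 with its whole interval past 2-fold, and the median log2 ratio was −0.04. Taf1, the largest subunit and a partner of TBP, had 164 counts in the aged and 254 in the young library, a log2 ratio of −0.56 (−0.86 to −0.28). Taf2, which contacts the initiator element at the start site, had 69 and 123 counts in the aged and young libraries, a log2 ratio of −0.77 (−1.21 to −0.33). Taf5, a scaffold of the complex, had 343 counts in both, a log2 ratio of 0.07. Taf3, which reads a methylated lysine of histone H3, had 1020 counts in the aged and 651 in the young library, a log2 ratio of 0.71.

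Taf7, a regulator of Taf1, was 2.90-fold higher with 1623 counts (87.3 CPM) in the aged and 586 counts (30.1 CPM) in the young library, a log2 ratio of 1.54. Its paralogue Taf7l, known from male germ cells, had no count in either library, and the exact interval of its share of the pair's counts in the aged library reaches 0.227%. Taf8 was 3.21-fold lower with 336 counts (18.1 CPM) in the aged and 1129 counts (58.0 CPM) in the young library, a log2 ratio of −1.68 (−1.86 to −1.51). Taf4 had 1513 and 1629 counts in the aged and young libraries, a log2 ratio of −0.04. Taf4b, the ovary-enriched paralogue needed for a normal supply of mouse oocytes, had 253 counts in the aged and 291 in the young library, a log2 ratio of −0.14 (−0.38 to 0.11). Taf4b made up 14.3% of the Taf4 and Taf4b counts in aged oocytes and 15.2% in the young, with overlapping intervals of 12.7% to 16.0% and 13.6% to 16.8%.

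Taf9 and Taf9b, paralogues that can each fill the same place in TFIID, lay in opposite directions. Taf9b was 3.57-fold lower with 93 counts in the aged and 348 counts (17.9 CPM) in the young library, a log2 ratio of −1.84 (−2.18 to −1.50). Taf9 was 2.38-fold higher with 674 counts (36.2 CPM) in the aged and 296 counts (15.2 CPM) in the young library, a log2 ratio of 1.25 (1.05 to 1.46). Of the counts of the pair, Taf9b made up 12.1% (9.90% to 14.6%) in aged oocytes and 54.0% (50.1% to 57.9%) in young oocytes, intervals that do not overlap. Both genes together had 41.2 CPM in the aged and 33.1 CPM in the young library. With centring on the median gene Taf9b remained more than 2-fold lower and Taf9 was short of 2-fold, at 0.83.

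The stretch of 90 coding bases in which the genes are most alike is printed from the GENCODE transcripts (GRCm38). How reads were aligned was not given in the sources used here, so whether reads of the pair were kept apart was not tested. The Taf9 stretch lies in exon 2 at chr13:100655347-100655436 on the plus strand, the Taf9b stretch in exon 4 at chrX:106218116-106218205 on the minus strand, both at coding bases 297 to 386. Capitals mark the 11 bases that differ.
Taf9: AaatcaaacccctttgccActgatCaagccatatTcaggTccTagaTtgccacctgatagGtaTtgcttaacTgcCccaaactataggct
Taf9b: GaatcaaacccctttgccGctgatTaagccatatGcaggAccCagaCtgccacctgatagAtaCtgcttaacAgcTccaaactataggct
Over 744 aligned coding bases the genes were 78.0% identical, and the longest identical run was 17 bases, so no window of 50 bases is common to both. Taf9b shares no window with any other annotated gene. Taf9, in contrast, shares 76.8% of its windows with others, most with Ak6, whose transcripts overlap it, and the counts of Taf9 are therefore uncertain. Ak6 itself had 33 counts in each library.

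TFIID is built largely from pairs of TAFs joined through histone folds, and the measured ratios of several such partners lay apart. Taf12 was 3.56-fold higher with 1036 counts (55.7 CPM) in the aged and 305 counts (15.7 CPM) in the young library, a log2 ratio of 1.83 (1.65 to 2.02), while its partners Taf4 and Taf4b were near equality. Taf13 was 2.51-fold higher with 810 counts (43.6 CPM) in the aged and 338 counts (17.4 CPM) in the young library, a log2 ratio of 1.33 (1.14 to 1.51). Its partner Taf11 had 1485 and 1648 counts in the aged and young libraries, a log2 ratio of −0.08. Taf6, the partner of Taf9 and the TFIID gene with the highest level per kilobase (104 CPM in the aged and 114 CPM in the young library), had 4474 counts in the aged and 5113 in the young library, a log2 ratio of −0.13. Taf10, shared by TFIID and the coactivator SAGA, had 2078 and 1832 counts in the aged and young libraries, a log2 ratio of 0.25. Its partner Taf8 was lower, while its other partner Taf3, at 0.71, lay on the same side of equality as measured. Centred on the median gene, Taf10 was at −0.18 and Taf3 at 0.29. Levels per kilobase lay nearer to each other in the aged library for Taf12 and Taf4, at 14.7 and 18.4 CPM in the aged and 4.14 and 18.9 CPM in the young library. They lay further apart for Taf12 and Taf4b, at 14.7 and 2.64 CPM in the aged and 4.14 and 2.90 CPM in the young library. The same was so for Taf10 and Taf8, at 26.1 and 6.47 CPM in the aged and 22.0 and 20.8 CPM in the young library. After correction for transcript length and GC content, Taf9 and Taf6 were at 0.14 and −0.01, and Taf13 and Taf11 at 0.25 and −0.25. Taf12 and Taf4 were then at 1.41 and 0.07, and Taf10, Taf8 and Taf3 at −0.15, −1.96 and 0.00. The share of windows that also occur in other genes was 49.1% for Taf10, 33.8% for Taf6, 18.2% for Taf11 and 10.2% for Taf13. Part of their counts may thus belong to other genes, as for Taf9. The partner pairs were set side by side after their values were seen. No other pairs of genes were drawn for comparison, so whether partners differ more than other genes was not tested.

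**Figure D3:**
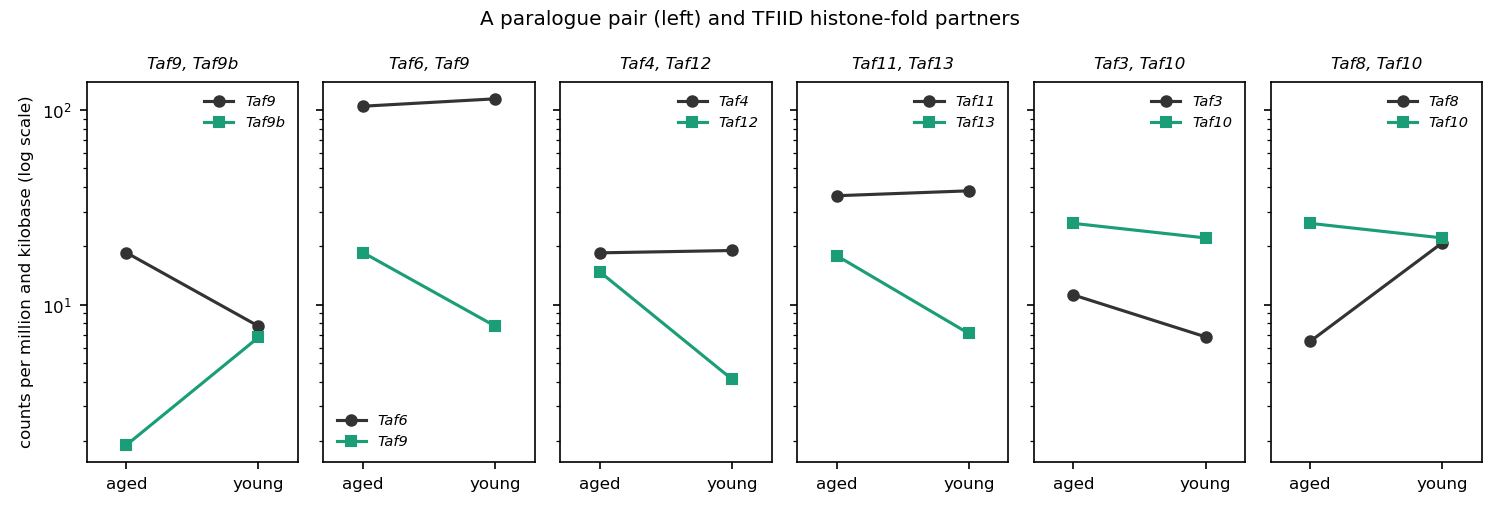
Levels in CPM per kilobase (log axis) of the paralogues Taf9 and Taf9b and of 5 pairs of histone-fold partners in TFIID, aged library at the left of each panel and young library at the right. Taf9b is at 1.90 CPM per kilobase in the aged and 6.79 in the young library, and Taf12 at 14.7 and 4.14, while Taf6, Taf4 and Taf11 stay level.

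Taf15 had the highest ratio of all members. Taf15 (ENSMUSG00000020680, chromosome 11) encodes an RNA-binding protein that was found with TFIID but is no histone-fold subunit of it. It had 582 counts (31.3 CPM) in the aged and 39 counts (2.00 CPM) in the young library, 15.6-fold higher, with a log2 ratio of 3.97 (3.50 to 4.47). No 50-base window of its longest coding transcript occurs in another annotated gene.

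The remaining Taf symbols belong to other complexes. Taf1b, Taf1c and Taf1d encode TAFs of SL1, the factor that brings RNA polymerase I to the ribosomal RNA genes. Taf1c (ENSMUSG00000031832, chromosome 8) had 0 counts in the aged and 59 counts (3.03 CPM) in the young library. This is 18.8-fold lower when 3 counts stand in place of 0, and at least 14.8-fold lower by its counting interval. Of its windows 14.2% are shared with another gene. Taf1b had 42 counts in the aged and 77 in the young library, a log2 ratio of −0.81. Taf1d, with 48 counts (2.58 CPM) in the aged and 24 counts (1.23 CPM) in the young library, had one of 1.07 (0.33 to 1.84). Of all members past a 2-fold limit, Taf1d was the nearest to it. None of these 3 genes was above 3.95 CPM in either library. Taf5l and Taf6l, which replace Taf5 and Taf6 in SAGA, were below the floor with 15 and 23 counts and with 2 and 5 counts in the aged and young libraries. Taf5l made up 4.19% of the counts of Taf5 and Taf5l in aged oocytes and 6.28% in the young, with overlapping intervals of 2.36% to 6.82% and 4.03% to 9.28%. Taf6l made up 0.0447% of the counts of Taf6 and Taf6l in aged oocytes and 0.0977% in the young.

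The promoters of 4 of these genes are shown because Taf15 had the highest ratio of all members, Taf8 and Taf9b the lowest of TFIID, and Taf9 is the paralogue of Taf9b. Each line holds the 250 bases before the most upstream start site in the RefSeq promoter table (GRCm38.p6), 5′ to 3′. Capitals mark matches on either strand to 4 motifs, none of which overlap in these windows. The GC box was searched as GGGCGG. The letters CCAAT stood for the CCAAT box. For the TATA box the search used TATAAA. The core of ETS factor sites was CCGGAA. Taf15 lies at chr11:83472858-83473107 on the plus strand, Taf8 at chr17:47502292-47502541 on the minus strand, Taf9 at chr13:100651093-100651342 on the plus strand and Taf9b at chrX:106221159-106221408 on the minus strand.
Taf15: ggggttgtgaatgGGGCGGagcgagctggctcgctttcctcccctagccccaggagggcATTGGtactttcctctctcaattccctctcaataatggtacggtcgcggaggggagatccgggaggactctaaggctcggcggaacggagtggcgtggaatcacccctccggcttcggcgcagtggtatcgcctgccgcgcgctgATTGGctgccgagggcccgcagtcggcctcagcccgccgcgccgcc
Taf8: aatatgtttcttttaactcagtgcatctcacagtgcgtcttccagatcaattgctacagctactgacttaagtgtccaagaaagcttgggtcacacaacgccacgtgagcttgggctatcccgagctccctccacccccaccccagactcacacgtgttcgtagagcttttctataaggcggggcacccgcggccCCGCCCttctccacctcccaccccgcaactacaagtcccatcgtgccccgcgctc
Taf9: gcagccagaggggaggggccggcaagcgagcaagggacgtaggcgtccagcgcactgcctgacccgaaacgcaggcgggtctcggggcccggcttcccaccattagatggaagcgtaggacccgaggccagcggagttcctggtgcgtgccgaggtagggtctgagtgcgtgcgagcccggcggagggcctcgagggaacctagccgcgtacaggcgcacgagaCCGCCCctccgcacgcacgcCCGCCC
Taf9b: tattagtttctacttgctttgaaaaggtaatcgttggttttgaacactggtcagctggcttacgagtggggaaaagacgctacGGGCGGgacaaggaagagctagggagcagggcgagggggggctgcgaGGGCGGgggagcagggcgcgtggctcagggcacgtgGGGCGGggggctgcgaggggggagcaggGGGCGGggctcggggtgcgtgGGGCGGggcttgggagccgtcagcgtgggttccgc
All 4 hold a GC box and none a TATA box, and Taf15 also holds CCAAT boxes. A promoter was found for 45 of the 52 genes. Of these 68.9% held a GC box, against 33.0% of all 27025 promoters in the table, which include those of noncoding genes, and 26.7% held the ETS core, against 12.3%. The TATA box was found in 13.3%, against 13.0%, and the CCAAT box in 35.6%, against 34.5%. The 250 bases held a median of 18 CG dinucleotides in the members and 6 in all promoters. These matches describe the letters of the windows, with no measurement of binding.

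The ratios of the members followed the base composition of their transcripts, as those of all genes did. Across the 46 genes above the floor, which share both libraries, Spearman's rho between the log2 ratio and GC content was −0.41, against −0.40 across 9902 genes. The median ratio was 0.71 in the 23 members of lower GC content (39.6% to 47.9%) and −0.11 in the 23 of higher GC content (48.5% to 60.9%). After each ratio was reduced by the median of genes of like transcript length and GC content, the Mediator median was −0.33 and the Taf median −0.15. Med17, Med4 and Med24 remained at least 2-fold higher, as did Taf12 and Taf15. Taf7, Taf9 and Taf13, with GC contents of 39.6%, 39.6% and 41.3%, had corrected log2 ratios of 0.43, 0.14 and 0.25. Taf9b lay further down at −2.55 and Taf8 at −1.96, and Taf1, Taf2, Taf1b and Med12 then also passed 2-fold on the lower side, at −1.51, −1.43, −1.52 and −1.17.

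**Figure D4:**
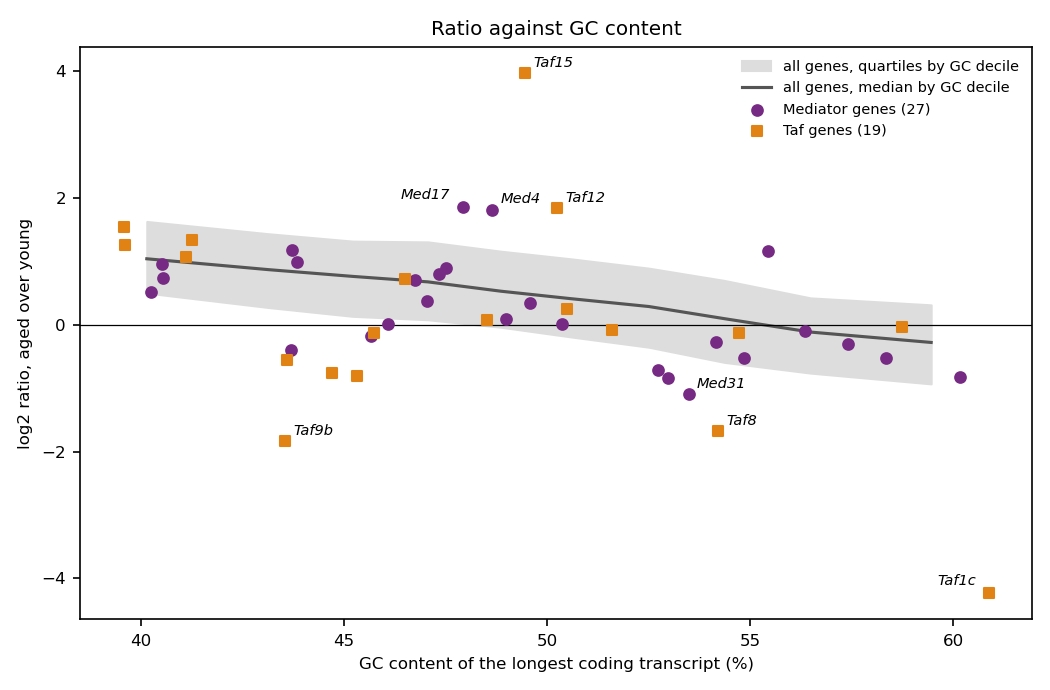
Log2 ratio of aged over young against GC content (%) of the longest coding transcript for 27 Mediator and 19 Taf genes. The line and band are the median and quartiles of all genes in deciles of GC content, whose median runs from 1.04 in the lowest to −0.28 in the highest decile. Taf15, Taf9b, Taf8 and Taf1c lie far outside the band.

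Genes that work beside TFIID were taken from lists and not from the symbol rule. Tbp had 350 counts in the aged and 217 in the young library, a log2 ratio of 0.76. Tbpl2, its oocyte counterpart, was 2.28-fold lower with 39 counts in the aged and 93 in the young library, and the interval of its log2 ratio of −1.19 ran from −1.77 to −0.63. Tbpl1, a relative known from male germ cells, had 442 and 511 counts in the aged and young libraries, a log2 ratio of −0.14. After correction for transcript length and GC content, Tbp was at −0.185, Tbpl2 at −1.98 and Tbpl1 at −0.85. Of 18 genes of the general factors TFIIA, TFIIB, TFIIE, TFIIF and TFIIH, 17 were above the floor, and 4 of these (23.5%) lay above and 1 (5.88%) below the 2-fold limits, against 27.9% and 10.6% of all genes. Their median log2 ratio was 0.50, near the 0.43 of all genes. The interval lay beyond 2-fold for Gtf2a1, the large subunit of TFIIA, with 982 counts in the aged and 404 in the young library, a log2 ratio of 1.35 (1.18 to 1.52). It did so too for Gtf2h1, of TFIIH, with 181 and 54 counts in the aged and young libraries, a log2 ratio of 1.81 (1.37 to 2.28). Centred on the median gene, Gtf2a1 was at 0.92 and Gtf2h1 at 1.39. With the length and GC correction both were short of 2-fold, at 0.34 and 0.92.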

How the data were processed

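RNA was measured in 1 library per age. Per the labels' protocols, 18 oocytes were lysed together, cDNA was primed by oligo(dT), tailed, amplified by PCR without molecular identifiers and sequenced on a SOLiD instrument, so a change in poly(A) tail and in RNA amount cannot be told apart. Per the submitters' processing notes reads were placed on mm9. How they were aligned and counted, and with what use of strand, was not given in the sources used here. The authors deposited whole-number counts per Ensembl gene, and log2 fold changes of control over aging scaled to library totals. In the authors' deposited table, 50 members had such a fold change, and all 50 matched those recomputed within 1e-06. Reads are not independent molecules, so intervals and floors cover counting error only.

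Symbols came from GENCODE mouse release 21 (85.5% of rows matched), as did length and GC content of each gene's longest coding transcript and the 50-base windows shared with transcripts of other genes. A gene entered the comparison when its counts averaged 20 or more. Its log2 ratio sets aged CPM over young CPM, with 3 counts in place of 0, and its 95% interval is the exact (Clopper-Pearson) one for the share of its counts that fell in the aged library. The calculation was tested on simulated data. Counts and levels were given for members at least 2-fold apart, leading members of each module, paralogue pairs, members next to the 2-fold limits and the TBP and kinase partners, and others were added after their values were seen. Members and lists were chosen with earlier results of these data known. Tables were made in Python 3.11.15 (pandas 2.3.3, numpy 2.4.6), intervals with scipy 1.17.1 and plots with matplotlib 3.10.9. From edgeR 4.0.16 (R 4.3.3) TMM factors only were taken. Alternatives were other scalings, floors, fold limits, 5 added counts and a correction by 10 length and 10 GC bins.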

Additional observations from a re-analysis of the deposited data

How the results depend on the processing

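No paired analysis was possible because each age has 1 library. Of the 14 members at least 2-fold apart, 8 (Med4, Med17, Med31, Taf1c, Taf8, Taf9b, Taf12 and Taf15) kept 2-fold under all 5 alternatives that change a ratio, and none of the 14 changed direction. Each of the 3 other scalings lowers all log2 ratios by a constant of no more than 0.43. Under these scalings none of the 14 could change direction, and those on the lower side could only stay there. Mediator genes at least 2-fold higher numbered 4 and lower 1, and Taf genes 6 and 3. With centring on the median gene, which lowers every log2 ratio by 0.43, they were 2 and 4 for Mediator and 3 and 5 for Taf, with medians of −0.34 and −0.47. Under edgeR's TMM scaling they were 2 and 4 and 3 and 5, with medians of −0.28 and −0.41. Of all genes 16% were higher and 17.3% lower with centring, and 17.2% and 16.3% with TMM. When the 100 most abundant genes were dropped from the totals they were 2 and 4 for Mediator and 4 and 5 for Taf, with medians of −0.20 and −0.33. All genes then gave 19.5% higher and 14.6% lower. The genes lost under these scalings were Med6, Med24, Taf1d and Taf9, and with centring and TMM Taf13, and those gained on the lower side Med11, Med12, Med16, Taf1b and Taf2. With the length and GC correction they were 3 and 2 for Mediator and 2 and 6 for Taf, with a Mediator median of −0.33 and a Taf median of −0.15, where 13.6% of all genes were higher and 14.9% lower. With no floor 2 of 29 Mediator genes were lower, against 18.4% of all genes with counts. A rule that the counting interval lie beyond 2-fold left 2 Mediator genes higher and 0 lower, 1.5-fold gave 10 and 4 for Mediator and 5 lower for Taf (43.3% and 17.1% of all genes), and 3-fold gave 2 and 0 for Mediator and 2 higher for Taf (12.8% and 5.51%). The 13 members that share 10% or more of their windows with another gene were left out as a choice made after seeing the data. Then 0 of 21 Mediator genes were lower, against 10.6% of all genes, and 3 of 12 Taf genes higher, against 27.8%. The other counts were within 1.5 times. With a floor of 100 counts the Taf median was 0.07, above equality. Depth limits Med12, Med12l, Med13l, Med29, Taf5l, Taf6l, Taf1d and Taf1c. The ratio of Taf1c rests on 3 counts in place of 0, and with a floor of 100 counts Taf1c and Taf1d drop out.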

Other observations

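SAGA is the coactivator that shares Taf9, Taf10 and Taf12 with TFIID and modifies histones at promoters. Of 16 SAGA genes listed apart from the TAFs, 14 were above the floor, of which 2 were higher by 2-fold or more in aged oocytes and 0 lower by as much, against 27.9% and 10.6% of all genes. Their median log2 ratio was −0.14, against 0.43 for all genes. Eny2, a small subunit of its deubiquitinase module, had 3290 counts in the aged and 811 in the young library, a log2 ratio of 2.09 (95% counting interval 1.98 to 2.20). Usp22, the deubiquitinase of the same module, had 166 counts in the aged and 294 in the young library, a log2 ratio of −0.76 (−1.04 to −0.48). Atxn7, which anchors that module, had 157 and 70 counts in the aged and young libraries, a log2 ratio of 1.23 (0.82 to 1.66), and its Atxn7l3 subunit was near the detection limit with 3 counts and 1 count. The acetyltransferase gene Kat2a had 531 counts in the aged and 966 in the young library, a log2 ratio of −0.80 (−0.95 to −0.64), while its paralogue Kat2b had none in either. After correction for transcript length and GC content, Eny2 was at 1.15, Atxn7 at 0.53, Usp22 at −1.155 and Kat2a at −0.68. The SAGA genes other than Eny2 are named after their values were seen.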
